A study of Rattus norvegicus with 32 samples.

Results

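The carriers described here are the 58 rat genes of the solute carrier families Slc1, Slc3, Slc6, Slc7, Slc15, Slc36, Slc38 and Slc43, which move amino acids, small peptides and some related compounds across membranes. They were found by gene symbol among the 13215 genes that have a named row on the array, and for each gene the row with the highest mean over the 32 arrays was used. The 58 genes have 59 rows, because Slc7a12 has a second row. No measured value of a tissue or state entered the rule for the genes, which was set with earlier results of these data known.

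Dietary protein is taken up by enterocytes as free amino acids and as small peptides. Brush border carriers take them in from the lumen, often with sodium or protons, and basolateral exchangers and facilitators, several of them paired with the heavy chain Slc3a2, pass them on to the portal blood. The liver then takes up alanine, glutamine, histidine, arginine and others through systems A, N and y+, and a lactating dam eats far more than a virgin and exports amino acids into milk protein.

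Expression was profiled in Sprague-Dawley rats with Affymetrix Rat Exon 1.0 ST arrays, in liver and in mucosal scrapes of duodenum, jejunum and ileum. The lactating group held 16 dams at day 10 to 11 of lactation, and the control group held 16 virgin females of matching age. All rats were killed at hour 16. Equal pools were formed from the RNA of 4 rats, whose 4 tissues were each pooled in the same way, and each of the 8 groups of tissue and state had 4 pools. Virgin controls differ from the dams in pregnancy as well as in lactation, and these cannot be told apart. Values are log2 intensities that the authors normalized together, and differences are lactating minus control, or 1 tissue minus another, in log2 units, and the figure after ± is the SD over 4 pools for a level and the standard error of the fit for a difference. Tests were fitted with limma to all 19434 transcript clusters (the gene level rows of the array), with n = 4 pools per group, and a carrier was called at a Benjamini-Hochberg adjusted p under 0.05. An array row has its own scale, so levels are compared between tissues and states of 1 gene and not between genes.

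The tissues carried their own markers. Summed markers of hepatocytes (6 of 6 measured) had a mean log2 level of 15.90 in control liver and of 10.99 to 11.90 in control intestine, and those of enterocytes (3 of 6) 6.60 in liver and 14.17 to 14.80 in intestine. Array medians lay between 4.68 and 4.87. In a mucosal scrape and in whole liver, fewer cells of a type and less RNA per cell cannot be told apart. The pools numbered 4 stood apart. Their deviations from the group means correlated at 0.818 with each other and at -0.563 to -0.344 with pools of another number in the other state. Deviations from a group mean cancel within the group, so these negative values follow in part from the 0.818. The counts of carriers called for lactation were also made without the pools numbered 4.

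In control rats the carriers divided between liver and gut. A total of 44 of the 58 differed among the 4 tissues (F test), against 51.7% of all clusters. Between liver and the mean of the 3 intestinal segments 41 were called, against 46.3% of all clusters, 14 higher in liver (22.7% of all clusters were) and 27 lower (23.6%). A level of 6 was used as a line between bright and dim rows. It was reached in at least 1 group by 31 carriers. The remaining 27 stayed below 6 in all 8 groups, and no detection values were used to say whether such rows are above background. At or above 6 in controls were 18 carriers in liver, 19 in duodenum, 20 in jejunum and 25 in ileum. Some rows lay close to this line, such as Slc6a9 at 6.05 and Slc1a4 at 6.06 in control ileum. Slc1a1 fell on both sides of it, at 5.997 in control duodenum and 6.007 in control jejunum. The share of all clusters at or above 6 was not counted by tissue.

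**Figure D1:**
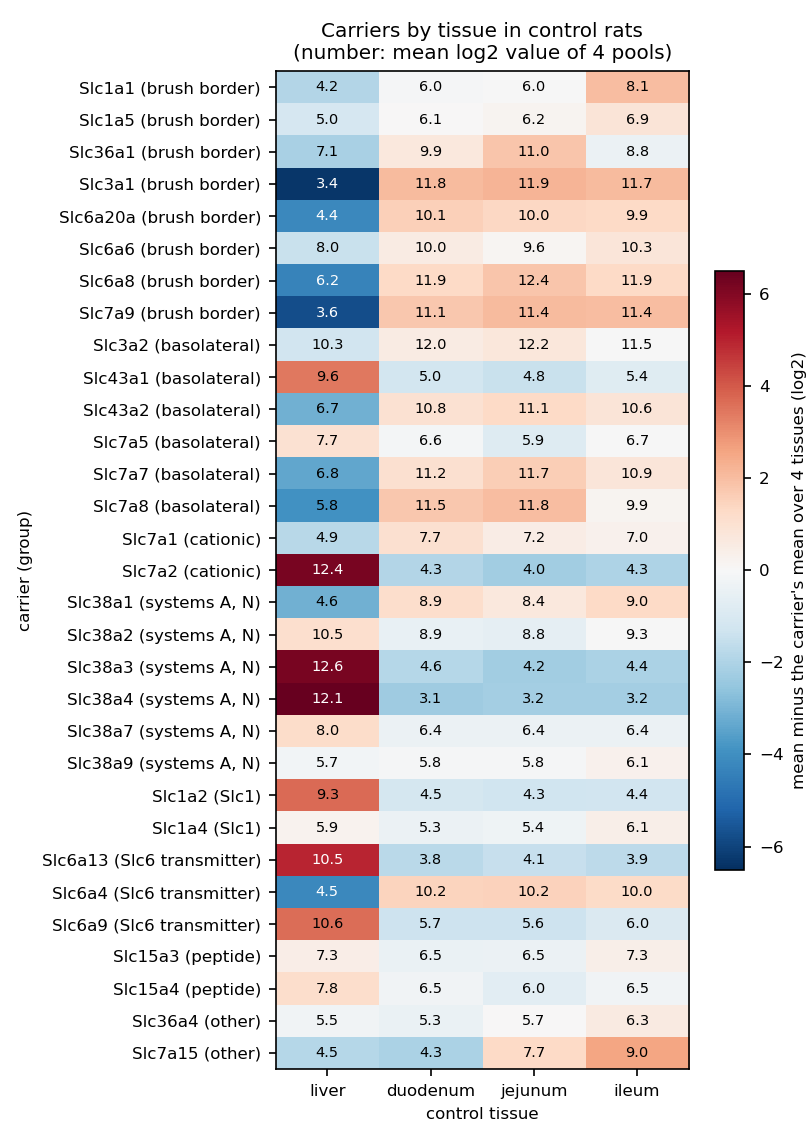
Mean log2 value of each of the 31 bright carriers in the 4 control tissues (columns), with 4 pools per tissue. The printed number is the mean and the colour is that mean minus the carrier's mean over the 4 tissues (red higher, blue lower). Slc38a3, Slc38a4 and Slc7a2 are near 12 in liver and below 5 in intestine, and Slc3a1 and Slc7a9 show the opposite.

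All 10 carriers of the brush border group were lower in liver than in intestine, and 8 of them were bright. Slc3a1, the heavy chain that partners Slc7a9, stood at 3.41 ± 0.29 (SD, n = 4 pools) in control liver and at 11.79 ± 0.05 in duodenum, 11.90 ± 0.07 in jejunum and 11.75 ± 0.08 in ileum. Slc7a9, the light chain of this carrier of cystine and cationic amino acids, went from 3.61 ± 0.18 in liver to 11.11 ± 0.10, 11.42 ± 0.10 and 11.37 ± 0.04 in the same segments. Liver minus intestine was -8.40 ± 0.08 (adjusted p = 7.12e-34) for Slc3a1 and -7.69 ± 0.07 (adjusted p = 3.59e-34) for Slc7a9. Slc6a8, the creatine carrier, followed at -5.81 ± 0.08, and Slc6a20a, the sodium-coupled carrier of proline and other imino acids, at -5.61 ± 0.12. The proton-coupled Slc36a1, which carries small neutral amino acids, differed by -2.83 ± 0.20, the epithelial glutamate carrier Slc1a1 by -2.52 ± 0.13, the taurine carrier Slc6a6 by -1.91 ± 0.11 and the neutral amino acid exchanger Slc1a5 by -1.44 ± 0.10. The dim members Slc6a18 and Slc36a2, known from the kidney brush border, did not reach 6 in any group.

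The basolateral and exchanger group of 9 carriers was mixed. Slc3a2 itself was lower in liver (-1.66 ± 0.08), with 10.26 ± 0.19 in liver against 12.01 ± 0.03 in duodenum, 12.24 ± 0.06 in jejunum and 11.49 ± 0.17 in ileum. Its intestinal partners Slc7a8, an exchanger of neutral amino acids, and Slc7a7, the exporter of cationic amino acids, were lower in liver, by -5.28 ± 0.16 and -4.51 ± 0.09. Slc7a5, another partner, which exchanges large neutral amino acids, was higher in liver by 1.34 ± 0.12. The 2 facilitators of the Slc43 family went opposite ways. Slc43a1 was higher in liver by 4.54 ± 0.09, at 9.61 ± 0.11 against 4.78 to 5.44 in the segments, and Slc43a2 was lower (-4.18 ± 0.11), at 6.69 ± 0.21 against 10.65 to 11.13.

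The liver side was led by systems A, N and y+. Slc38a4, a system A carrier of the liver, had 12.11 ± 0.12 in liver and 3.12 to 3.22 in the segments, a difference of 8.92 ± 0.07 (adjusted p = 2.09e-35). Slc38a3, the system N carrier of glutamine and histidine, and Slc7a2, the arginine and lysine carrier of liver, both differed by 8.23, with standard errors of 0.09 and 0.08. The close relatives of these genes took other patterns. Slc38a1 was lower in liver (-4.18 ± 0.08), as was Slc7a1, the widely expressed arginine and lysine carrier (-2.42 ± 0.09). Slc38a2, the system A carrier that responds to amino acid supply, was bright in all 4 tissues and higher in liver by 1.46 ± 0.08. Of the glutamate family, Slc1a2, which is known from astrocytes and from perivenous hepatocytes, was higher in liver by 4.94 ± 0.10, while Slc1a4, an exchanger of alanine, serine and cysteine, differed by 0.33 ± 0.15 (adjusted p = 0.0743) and was not called.

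Of the 10 genes of the transmitter group, 3 were bright. Slc6a13, a GABA and taurine carrier of the liver, was higher in liver by 6.62 ± 0.08, and the glycine carrier Slc6a9 by 4.81 ± 0.08. Slc6a4, the serotonin carrier, was lower in liver (-5.59 ± 0.10), at 4.53 ± 0.20 against 9.99 to 10.20 in the segments. Both bright members of the peptide family, the lysosomal carriers Slc15a4 and Slc15a3, were higher in liver, by 1.49 ± 0.13 and 0.54 ± 0.15. The intestinal peptide carrier Slc15a1 and the neutral amino acid carriers Slc6a19 and Slc6a14 were not analysed here.

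Along the gut, 24 carriers differed between ileum and duodenum, against 20.8% of all clusters, 16 higher in ileum (15.5% of all clusters were) and 8 lower (5.3%). Slc7a15, a light chain for which transport of aromatic amino acids is known from the mouse, had the widest range, with 4.33 ± 0.39 in duodenum, 7.70 ± 0.49 in jejunum and 8.96 ± 0.15 in ileum. All 3 pairwise differences passed the test, and the ileum lay above the duodenum by 4.62 ± 0.22 (adjusted p = 1.61e-15). Slc1a1 stood at 6.0 ± 0.14 and 6.01 ± 0.17 in duodenum and jejunum, which did not differ beyond their spread, and at 8.05 ± 0.21 in ileum, higher than duodenum by 2.05 ± 0.16. Slc7a11, the cystine for glutamate exchanger, was dim throughout, with 3.35, 4.09 and 4.63 in the 3 segments, and higher in ileum than in duodenum by 1.27 ± 0.12. On the other side, Slc7a8 (-1.62 ± 0.20) and Slc36a1 (-1.08 ± 0.24) were lower in ileum than in duodenum. Slc36a1 peaked in the jejunum, at 11.01 ± 0.20 against 9.91 ± 0.14 in duodenum and 8.83 ± 0.44 in ileum.

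The jejunum was compared with each neighbour. It differed from the duodenum in 16 carriers (13.1% of all clusters differed), 7 higher (6.77%) and 9 lower (6.3%), and the ileum differed from the jejunum in 25 (26.1%), 19 higher (18.2%) and 6 lower (7.89%). Besides Slc36a1, higher in jejunum than in both neighbours were Slc7a7, by 0.53 ± 0.11 over duodenum with ileum minus jejunum at -0.81 ± 0.11, and Slc6a8, by 0.50 ± 0.10 over duodenum with ileum minus jejunum at -0.52 ± 0.10. Slc38a5, a system N carrier of glutamine, was lower in jejunum (-0.80 ± 0.11) and ileum (-0.86 ± 0.11) than in duodenum, but never reached 6. The 11 measured markers of pancreatic acinar cells were likewise lower in control ileum than in duodenum (11 of 11 called, against 5.3% of all clusters called lower).

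Sequence upstream of the start site was searched for 5 short motifs in the carriers' RefSeq promoters (build GRCr8, 150 bases before the start, both strands). There were 48 promoter entries for 44 of the 58 carriers, among 33469 entries of all genes. The motifs were the Stat site TTCNNNGAA (4.41% of all promoters, 1 entry of the carriers), the amino acid response element TGATGNAA (2.01%, 2 entries), the antioxidant response element TGACNNNGC (6.58%, 6 entries), an Hnf1 site GTTAATNAT (0.418%, 2 entries) and an Hnf4 site CAAAGTCCA (0.215%, 1 entry). No motif overlapped another in a carrier. The Hnf1 letters were in Slc7a15, the carrier with the widest range along the gut, between 68 and 60 bases before the start, and in Slc7a12, which was dim in every group, and the Hnf4 letters in Slc3a1, the carrier furthest below the intestine in liver, between 89 and 81 bases. Among the carriers called for lactation, the antioxidant element letters were in Slc38a2 and Slc6a6, both called lower in lactating liver. The other carriers with these letters, Slc36a1, Slc38a8, Slc3a2 and Slc7a1, were not called in any tissue. The called carriers Slc1a2 and Slc38a5 held no match to any of the motifs. Slc6a20a, which fell in duodenum and jejunum, held no match either. The promoters of Slc7a15, Slc3a1, Slc38a2, Slc6a6 and Slc6a20a are printed 5′ to 3′ on the gene's strand with the matched letters in capitals. The matches in Slc7a15, Slc3a1 and Slc6a6 read as the motif on the opposite strand. They lie at chr6:37134502-37134651 (minus strand), chr6:15394750-15394899 (minus strand), chr7:129742620-129742769 (minus strand), chr4:125752352-125752501 (plus strand) and chr8:132199901-132200050 (minus strand).
Slc7a15: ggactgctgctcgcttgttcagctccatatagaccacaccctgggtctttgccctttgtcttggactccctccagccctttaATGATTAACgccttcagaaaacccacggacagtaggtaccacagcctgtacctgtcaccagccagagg
Slc3a1: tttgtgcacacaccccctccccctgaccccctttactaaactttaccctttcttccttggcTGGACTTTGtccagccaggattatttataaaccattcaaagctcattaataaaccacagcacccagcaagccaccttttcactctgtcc
Slc38a2: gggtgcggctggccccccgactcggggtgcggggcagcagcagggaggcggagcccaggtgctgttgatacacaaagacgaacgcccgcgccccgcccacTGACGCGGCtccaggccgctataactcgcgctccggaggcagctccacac
Slc6a6: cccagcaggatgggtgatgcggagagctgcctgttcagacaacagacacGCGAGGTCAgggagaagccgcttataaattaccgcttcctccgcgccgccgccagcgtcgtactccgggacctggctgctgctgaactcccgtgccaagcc
Slc6a20a: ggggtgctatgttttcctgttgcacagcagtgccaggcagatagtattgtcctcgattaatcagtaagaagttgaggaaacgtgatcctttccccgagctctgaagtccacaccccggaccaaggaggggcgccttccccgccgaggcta
A match is a description of letters in a window of the reference strain, and binding was not measured.

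Few carriers were called for lactation. Of the 232 pairs of carrier and tissue, 8 were called, and they belong to 6 carriers, Slc1a2, Slc38a2 and Slc6a6 in liver, Slc38a5 in duodenum, Slc6a20a in duodenum and jejunum, and Slc7a15 in jejunum and ileum. Of these 8, 1 was a rise and 7 were falls. Among the 224 pairs that were not called, differences ran from -0.49 to 0.69, 189 were within 0.25 and 223 within 0.5 of 0. The median difference over the 58 carriers was 0.02 in liver, -0.00 in duodenum, 0.04 in jejunum and -0.03 in ileum, against 0.01, 0.04, 0.01 and 0.02 over all clusters. The 4 pools of 1 state lay wholly on 1 side of those of the other for 3 carriers higher and 3 lower in liver, against 2.56% and 2.65% of all clusters (5.21% in either direction). In duodenum it was 6 and 3 (3.8% and 1.98%, 5.78% in all), in jejunum 2 and 3 (2.59% and 2.78%, 5.37% in all) and in ileum 2 and 5 (3.48% and 4.03%, 7.51% in all).

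**Figure D2:**
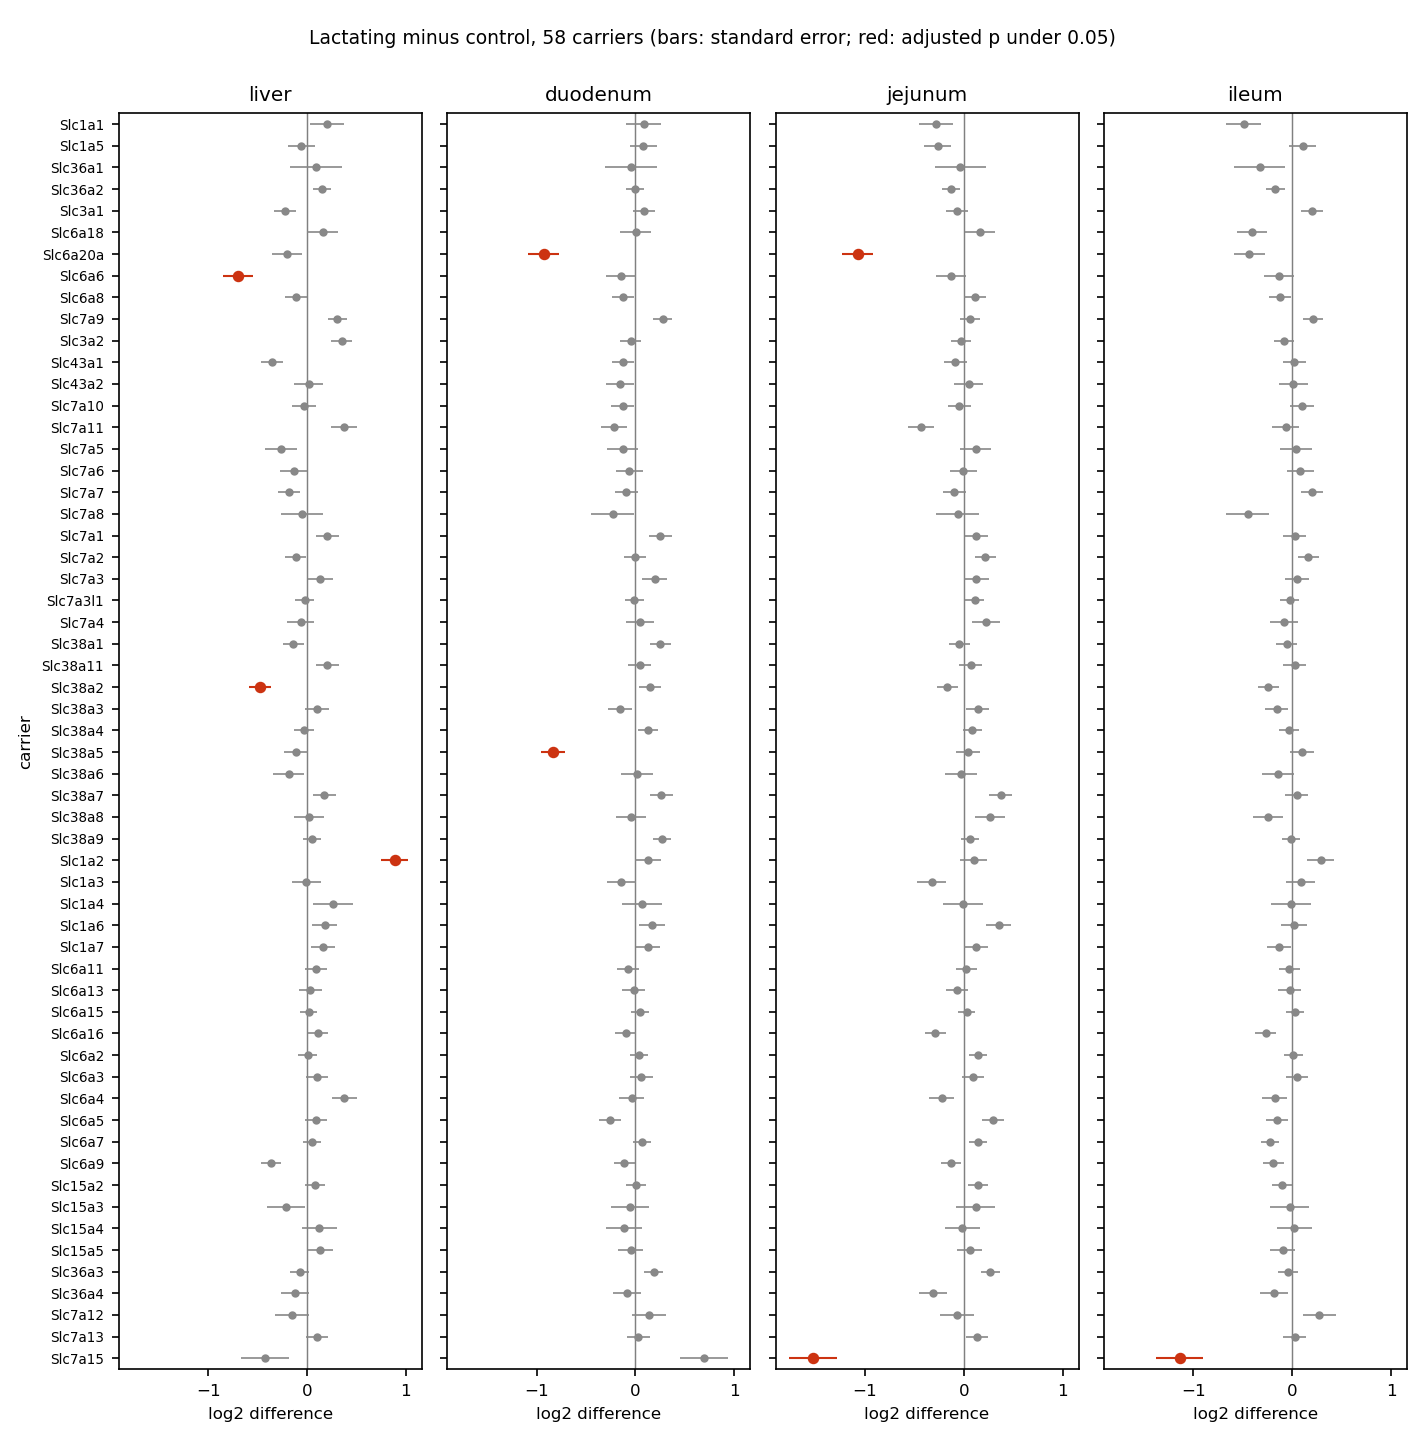
Lactating minus control on the log2 scale (x axis) for each of the 58 carriers (rows, in groups by role) in the 4 tissues (panels), with bars for the standard error of limma's fit. The 8 called differences are red, and all but Slc1a2 in liver lie to the left of 0.

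In liver 3 carriers were called, against 1.88% of all clusters, 1 higher (0.715%) and 2 lower (1.17%). Slc1a2 had 9.38, 9.51, 9.19 and 9.28 in the control pools 1 to 4 and 10.31, 9.98, 10.19 and 10.42 in the lactating pools. Every lactating pool lay above every control pool. The rise was 0.89 ± 0.13 (adjusted p = 0.000142) and was called in all 16 alternative analyses (transcript cluster 7230622). In the segments its differences were 0.13 ± 0.13, 0.10 ± 0.13 and 0.29 ± 0.13, none of them called, at levels below 5. The liver effect exceeded the mean intestinal effect by 0.72 ± 0.14 (adjusted p = 0.00417).

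Slc38a2 (cluster 7331331) had 10.56, 10.50, 10.31 and 10.51 in control liver and 9.97, 9.88, 9.94 and 10.20 in lactating liver. The groups did not overlap, and the fall was -0.47 ± 0.11 (adjusted p = 0.0174). In duodenum the difference was 0.14 ± 0.11, in jejunum -0.17 ± 0.11 and in ileum -0.24 ± 0.11, none called. The call was lost in 8 of 16 alternatives, 5 of which left out 1 pool. Its adjusted p was 0.0543, 0.0509 and 0.0728 with the control pools 1, 2 and 4 removed in turn, and 0.0716 and 0.0942 with the lactating pools 1 and 3 removed, over a range for all alternatives of adjusted p from 0.00146 to 0.227. Slc6a6 (cluster 7256210) had 7.59, 8.08, 8.20 and 8.32 in control liver and 7.04, 7.70, 7.27 and 7.37 in lactating liver. Control pool 1 lay below lactating pool 2, so the groups overlapped, and the difference was -0.70 ± 0.15 (adjusted p = 0.00909). Its call was lost in 6 of 16 alternatives. Removing the control pools 2, 3 or 4 gave an adjusted p of 0.0569, 0.0765 and 0.0602, removing the lactating pool 3 gave 0.0673 and removing both pools numbered 4 gave 0.107, over a range for all alternatives from 0.00174 to 0.291. In the segments, where Slc6a6 is brighter, its differences were between -0.14 and -0.13 and were not called.

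The labels do not pair pools of the 2 states, and the pool numbers were taken as pairs from these same values. A model with the pool number as an added term called 7 carriers in liver, against 4.13% of all clusters. The additional ones were Slc3a2 with 0.35 ± 0.11 (adjusted p = 0.0896, and 0.0322 with the number, range over alternatives 0.0322 to 0.444), Slc6a4 with 0.38 ± 0.13 (0.157 and 0.0298, range 0.0298 to 0.556), Slc6a9 with -0.36 ± 0.10 (0.0698 and 0.0267, range 0.0267 to 0.353) and Slc7a9 with 0.31 ± 0.10 (0.121 and 0.0455, range 0.0211 to 0.611). Mean levels of Slc6a4 and Slc7a9 were below 5 in liver. In Slc3a2 control pool 2 was lowest at 9.98, the other control pools lay at 10.31 to 10.37 and the lactating pools at 10.53 to 10.74. The most liver-enriched carriers had small differences that were not called, with -0.03 ± 0.10 for Slc38a4, 0.10 ± 0.12 for Slc38a3, -0.11 ± 0.11 for Slc7a2 and 0.04 ± 0.11 for Slc6a13.

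In the duodenum 2 carriers were called, against 0.643% of all clusters, and both fell (0.278% of all clusters were called lower). Slc6a20a (cluster 7351229) had 10.03, 10.17, 10.05 and 10.28 in the control pools and 9.14, 9.40, 9.06 and 9.23 in the lactating pools. The groups lay apart, and the fall was -0.93 ± 0.16 (adjusted p = 0.000917). The same carrier fell in the jejunum, where 2 carriers were called, both lower, against 0.808% of all clusters (0.463% lower). It had 9.97, 10.05, 9.73 and 10.12 in control jejunum and 9.12, 8.92, 8.82 and 8.71 in lactating jejunum, a difference of -1.07 ± 0.16 (adjusted p = 0.000224). In ileum the pools were again apart, at 9.79, 9.94, 9.70 and 10.16 against 9.57, 9.18, 9.59 and 9.52, but the difference of -0.43 ± 0.16 was not called (adjusted p = 0.213). Both calls held in all 16 alternatives. In liver, where the row is dim, the difference was -0.20 ± 0.16. Whether probes of this row also match the paralog Slc6a20b was not tested.

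**Figure D3:**
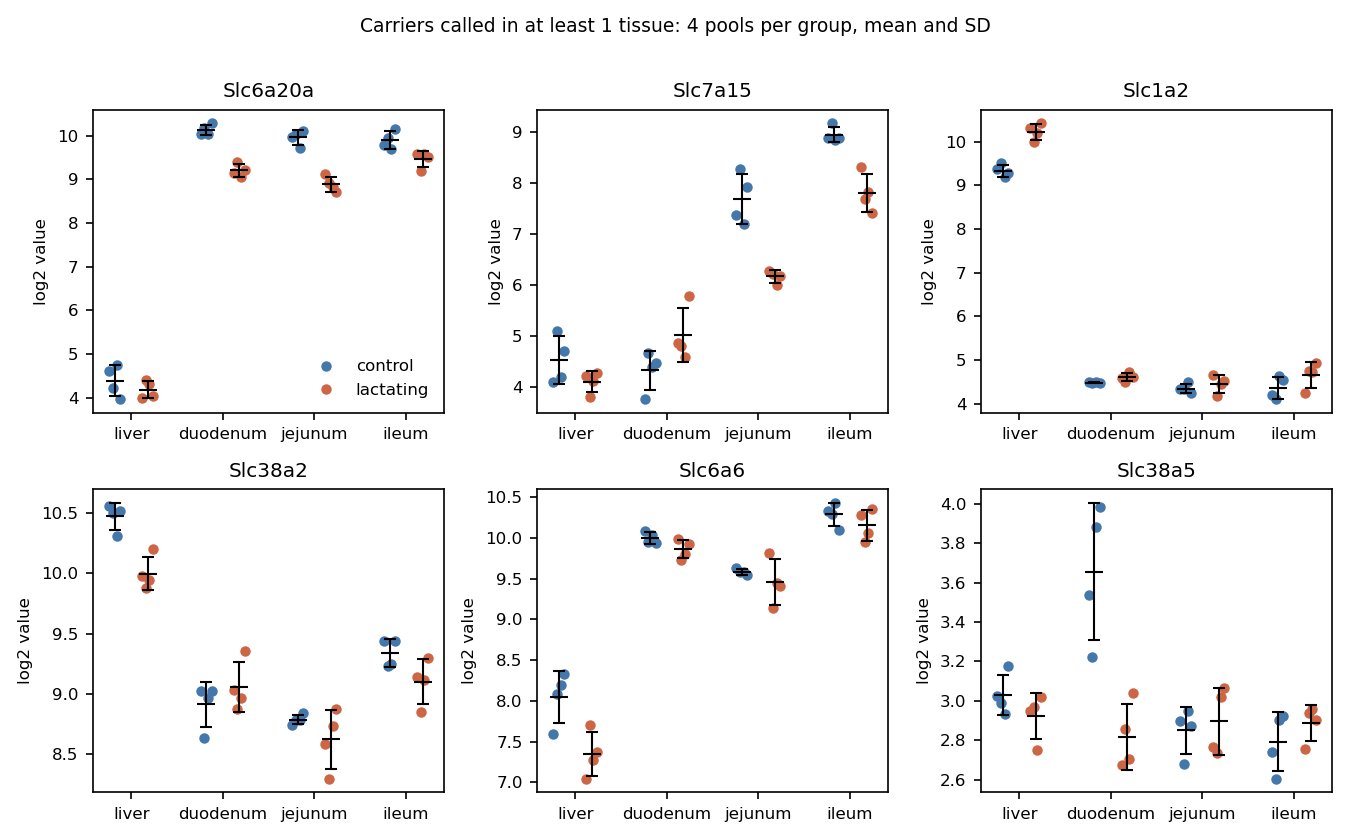
Log2 values (y axis) of the 6 carriers called in at least 1 tissue, in the 4 pools of each state (blue control, orange lactating) in 4 tissues, with the mean and SD in black. Slc6a20a is lower in all 4 lactating pools of each intestinal segment, Slc7a15 in jejunum and ileum, and Slc1a2 is higher in liver.

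Slc7a15 (cluster 7304464) moved in the lower segments, where it is bright. Control jejunum had 7.38, 8.28, 7.21 and 7.92 and lactating jejunum 6.29, 6.23, 6.0 and 6.18. The lactating pools were close together and all below the control pools, and the fall was -1.52 ± 0.24 (adjusted p = 0.000655). Of 16 alternatives 1 ended the call, the fit to only the arrays of the tissue (adjusted p = 0.0572, range over alternatives 0.000582 to 0.0572). In ileum, where 1 carrier was called, against 1.28% of all clusters (0.803% lower), the control pools had 8.90, 9.18, 8.86 and 8.90 and the lactating pools 8.32, 7.70, 7.83 and 7.42. These groups did not overlap either, and the fall was -1.14 ± 0.24 (adjusted p = 0.0115). The ileal call was lost in 4 of 16 alternatives, 2 of which left out 1 pool. Removing lactating pool 2 gave an adjusted p of 0.051, removing lactating pool 3 gave 0.0584 and removing both pools numbered 4 gave 0.1, over a range from 0.0046 to 0.1. In duodenum the pools overlapped, at 3.77, 4.68, 4.39 and 4.49 against 4.88, 4.82, 4.60 and 5.80, and the difference was 0.69 ± 0.24 (adjusted p = 0.299). The effect in duodenum differed from the mean effect in jejunum and ileum by 2.02 ± 0.27 (adjusted p = 5.33e-05). Such a contrast called 2 carriers, against 0.304% of all clusters. Lactating means were 5.03, 6.18 and 7.82 in duodenum, jejunum and ileum. Of the 3 measured markers of ileal enterocytes, none was called in jejunum or ileum and 1, Slc10a2, rose in duodenum (0.67, adjusted p = 0.0317). Their summed log2 level ran from 11.71 to 12.30 in control and 11.34 to 11.76 in lactating jejunum, and from 14.35 to 14.66 and 14.60 to 14.75 in ileum, and their part in the values of Slc7a15 was not tested. Of 5 adipocyte markers 1, Adipoq, fell in jejunum (-2.94, adjusted p = 1.5e-07). Their summed level ran from 10.61 to 10.97 in control and from 10.86 to 11.08 in lactating pools. The brightest marker alone had a mean of 10.61 in control and 10.88 in lactating jejunum, so the sum mostly follows that marker. Of the 5, 3 had a mean of 6 or more in control jejunum and 2 in lactating jejunum. The mean sum was 9.82 in control liver and 9.94 in control duodenum.

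Markers of dividing crypt cells (Mki67, Top2a, Ccnb1, Cdk1 and Bub1, 5 of 5 measured) had no call in any single tissue. Their median difference was 0.44 in liver, 0.57 in duodenum, 0.26 in jejunum and 0.63 in ileum. Their summed log2 level ran from 6.18 to 6.47 in control and 6.67 to 6.87 in lactating liver, from 9.6 to 9.97 and 10.02 to 10.65 in duodenum, from 8.30 to 8.95 and 8.37 to 9.42 in jejunum, and from 10.28 to 10.50 and 10.90 to 11.03 in ileum. The sums of the 2 states were apart in liver, duodenum and ileum and overlapped in jejunum. With the pool number in the model Ccnb1 was called higher in liver (adjusted p = 0.2, and 0.0338 with the number) and ileum (0.16 and 0.0203), and Cdk1 in ileum (0.182 and 0.0266). The study's mixed model, run here with the same adjustment, gave 0.324, 0.296 and 0.327. The mean of the 4 tissue effects was called for Ccnb1 and Cdk1 (adjusted p = 0.0295 and 0.0464), and for all 5 with the pool number. The part of these markers in the carrier differences was not tested.

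The second carrier of that contrast was Slc38a5 (cluster 7379840), whose effect in duodenum lay below that in jejunum and ileum (-0.91 ± 0.14, adjusted p = 0.000265). Its duodenal values were 3.53, 3.22, 3.88 and 3.98 in control pools and 2.67, 2.86, 2.71 and 3.04 in lactating pools. The groups were apart, but all 8 values were in the dim range, and the lactating pools lay at the level of the jejunum and ileum, where control means were 2.85 and 2.79. The fall was -0.84 ± 0.12 (adjusted p = 9.7e-05), and of 15 alternatives 1 ended the call, the fit to only the arrays of the tissue (adjusted p = 0.158, range over alternatives 1.03e-05 to 0.158). All 11 of the measured pancreatic acinar markers fell in the same duodenal samples, with a median difference of -4.41. Their summed log2 level was 15.29, 14.23, 15.44 and 14.96 in control pools 1 to 4 and 10.06, 13.32, 10.92 and 8.90 in lactating pools, so that it ranged from 14.23 to 15.44 and from 8.90 to 13.32. In jejunum and ileum of both states the pools lay between 7.87 and 8.74. The part of these markers in the fall of Slc38a5 was not tested.

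**Figure D4:**
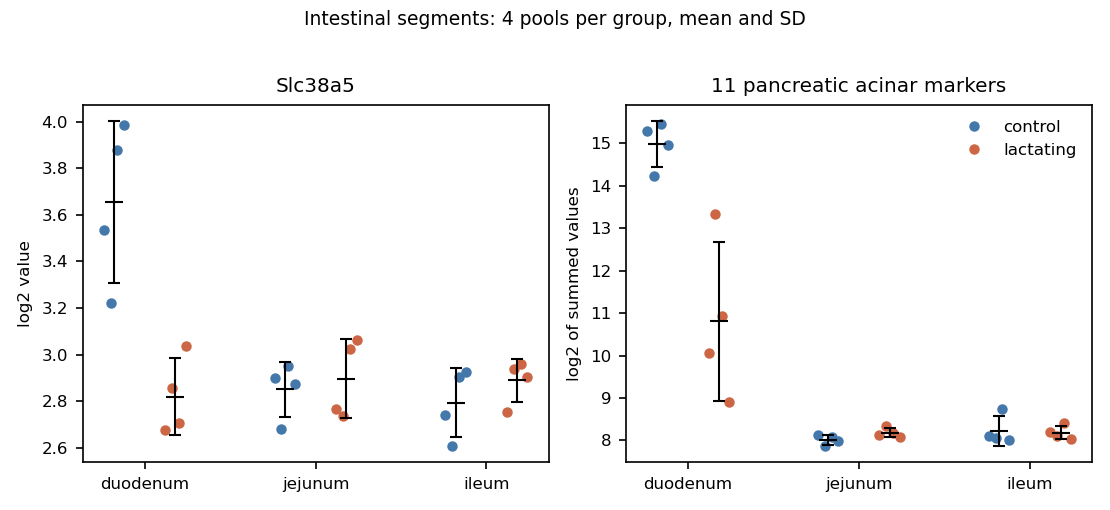
Log2 value of Slc38a5 (left) and log2 of the summed values of 11 pancreatic acinar markers (right) in the 3 intestinal segments, with 4 pools per state, mean and SD. Both are highest in control duodenum, and the other groups of Slc38a5 lie between 2.6 and 3.1.

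The mean of the 4 tissue effects was called for 3 carriers, against 2.51% of all clusters, 1 higher (0.957%) and 2 lower (1.55%). They were Slc6a20a with -0.66 ± 0.10 (adjusted p = 0.000124), Slc7a15 with -0.60 ± 0.15 (0.0248) and Slc1a2 with 0.35 ± 0.08 (0.0173). The call of Slc6a20a held in all 15 alternatives run, and that of Slc7a15 was lost in 6 and that of Slc1a2 in 7 of 15. With the pool number in the model 12 carriers were called, against 17.5% of all clusters, a share near that background. The additional ones were Slc1a6, Slc36a4, Slc38a2, Slc38a5, Slc38a7, Slc6a16, Slc6a6, Slc6a9 and Slc7a9, with differences between -0.28 and 0.21. In the jejunum the number added Slc38a7, a lysosomal glutamine exporter, with 0.37 ± 0.12 (adjusted p = 0.158, and 0.0471 with the number, range 0.0471 to 0.42), for 3 carriers against 2.1% of all clusters.

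Whether the effect of lactation differed among the 4 tissues was tested directly. The interaction called 5 carriers, against 2.05% of all clusters, Slc7a15 (adjusted p = 0.000173), Slc38a5 (0.000941), Slc1a2 (0.0214), Slc6a20a (0.0304) and Slc7a11 (0.0384). The first 2 held in every alternative run, while that of Slc1a2 was lost in 8 of 15, that of Slc6a20a in 9 of 15 (0.0512 with the pool number, range 0.00959 to 0.255) and that of Slc7a11 in 12 of 14 (0.075 with the pool number, range 0.026 to 0.271). For Slc38a2 the interaction had an adjusted p of 0.0762, and of 0.0319 with the pool number (range 0.00604 to 0.44). The liver effect lay above the mean intestinal effect for 4 carriers, against 2.05% of all clusters in either direction (0.854% higher), Slc1a2, Slc7a11 with 0.61 ± 0.14 (adjusted p = 0.0157), Slc6a4 with 0.53 ± 0.14 (0.0369) and Slc6a20a with 0.61 ± 0.16 (0.0484). Slc7a11 had single-tissue differences of 0.37 ± 0.13 in liver and -0.43 ± 0.13 in jejunum, neither called, at levels below 5. Without the pools numbered 4 none of these 4 calls was kept. With the pool number in the model 4 carriers were called, of which 3 were the same. Slc6a20a was lost (adjusted p = 0.0689, lost in 9 of 15 alternatives, range 0.0104 to 0.292), and Slc38a2, at -0.39 ± 0.12 (adjusted p = 0.0852), was called lower (0.0439 with the number, range 0.00965 to 0.325).

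By role, lactation called 1 of 10 brush border carriers in liver, duodenum and jejunum each, and none in ileum, where the shares of all clusters were 1.88%, 0.643%, 0.808% and 1.28%. The 10 carriers of the systems A and N group had Slc38a2 called in liver and Slc38a5 in duodenum. In the glutamate group of 5, Slc1a2 was called in liver, and among the 5 other carriers Slc7a15 in jejunum and ileum. None of the 9 basolateral carriers and exchangers, the 5 cationic, the 4 peptide or the 10 transmitter carriers was called in any tissue. At these shares of all clusters, groups this small would often have no call. With the pool number in the model the calls in liver, given above, include Slc3a2 of the basolateral group, Slc6a4 and Slc6a9 of the transmitter group and Slc7a9 of the brush border group. Slc3a1 and Slc7a9, the brush border pair, had differences of 0.09 ± 0.11 and 0.28 ± 0.10 in duodenum, -0.06 ± 0.11 and 0.06 ± 0.10 in jejunum, and 0.20 ± 0.11 and 0.21 ± 0.10 in ileum. None was called. Every lactating pool lay above every control pool for both genes in ileum (3.48% of all clusters) and for Slc7a9 in duodenum (3.8%). For Slc7a9 the mean of the 4 tissue effects had an adjusted p of 0.0514 in limma's fit (range over alternatives 0.000674 to 0.223). Slc3a2 differed by -0.05 ± 0.11, -0.03 ± 0.11 and -0.08 ± 0.11 in the segments. The enterocyte markers had no call in any tissue (0 of 3), with log2 sums of 14.60 to 14.86 in control and 14.64 to 14.75 in lactating duodenum, and 14.74 to 14.88 and 14.73 to 14.84 in jejunum. In ileum the sums ran from 14.07 to 14.31 in control and from 14.25 to 14.38 in lactating pools, with means of 14.17 and 14.33. Their part in the ileal differences of Slc3a1 and Slc7a9 was not tested.

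Neighbouring steps of amino acid handling were given by lists chosen with earlier results known. Of 18 listed genes of peptide digestion and carrier partners, 11 were measured, and all 11 were called lower in control liver than in intestine, against 23.6% of all clusters. In lactation 1 fell in liver, Slc16a10, the aromatic amino acid carrier, with -0.48 (adjusted p = 0.0415), against 1.17% of all clusters called lower there. This call was lost in the study's mixed model (adjusted p = 0.133) and held with the pool number (0.0102). In ileum 1 rose, Lap3, a leucine aminopeptidase, with 0.41 (adjusted p = 0.00744), against 1.28% of all clusters called in either direction. None was called in duodenum or jejunum (0.643% and 0.808% of all clusters). Xpnpep2, an aminopeptidase, was lower in all 4 lactating pools of jejunum than in the controls (-0.39, adjusted p = 0.0891), and was called with the pool number (0.011) and not in the study's mixed model (0.217). Of 18 listed genes of amino acid sensing, 14 were measured. In liver 1 rose, Eif2ak4, a kinase that senses uncharged tRNA, with 0.41 (adjusted p = 0.0235), against 0.715% of all clusters called higher. In jejunum 1 rose, Castor2, a relative of an arginine sensor upstream of mTORC1, with 1.01 (adjusted p = 0.00209), against 0.808% of all clusters in either direction. None was called in duodenum or ileum (0.643% and 1.28% of all clusters). The pool number added Rragc, a GTPase that acts on mTORC1, in duodenum (0.31, adjusted p = 0.226, and 0.023 with the number) and Ddit4, an mTORC1 inhibitor, in liver (0.42, adjusted p = 0.417, and 0.0284 with the number), and neither was called in the study's mixed model (0.356 and 0.596).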

How the data were processed

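RNA of liver, duodenum, jejunum and ileum was hybridised to 32 arrays, 4 pools for each tissue and state. The deposited log2 values are gene level RMA summaries that the authors computed in Affymetrix Expression Console, which corrects background and quantile normalizes all arrays before probes are summarised. The sources used here give no versions. The table holds 19434 transcript clusters with values from 0.82 to 14.41 and no column of other samples. All arrays were used. Precision is limited by signal over background and by the number of arrays.

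The probe annotation gives 1 gene symbol to 13327 clusters, several to 620 and none to 5487, and only the first were used. Symbols were matched to RefSeq promoters of GRCr8. The fit used limma 3.58.1 under R 4.3.3, with statmod 1.5.0. It had 8 group means, with pools as random blocks (consensus correlation 0.163, prior degrees of freedom 3.24), which is the layout of the study's mixed model. Two-sided p-values received Benjamini-Hochberg adjustment over all clusters. The study's mixed model was run here with this adjustment too. Its calls here are not those of the study, which set limits on unadjusted p-values for fewer genes. The study describes separate pools of rats, which the labels only number. The spread of a cluster was shared by all 8 groups. The p-values therefore measure the spread between pools over all tissues and not that of the named tissue alone, except where single tissues were fitted. Scripts were tested on simulated data. Python 3.11.15, numpy 2.4.6, pandas 2.3.3 and matplotlib 3.10.9 made the tables and plots.

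Deviations from the group means of pools with the same number in both states correlated at 0.307 to 0.818, and of different number at -0.563 to 0.31. Control pool 3 correlated at 0.31 with lactating pool 2 and at 0.307 with lactating pool 3, so the number marks no pair there. Deviations cancel within a group, so high correlations of the same number come with lower ones between different numbers. The numbers were taken as pairs from these correlations and not from labels. The model with the number as an added term is given where it changed a lactation call of a carrier or a listed gene that the text describes. Alternatives were this replicate block, only clusters with a group mean of 6 or more, no pool block, array weights, the study's mixed model, quantile normalization within each tissue or median centring, single tissues and each pool left out. An alternative without the pools numbered 4 was chosen after seeing the data. The carriers, roles, motifs and lists were chosen with earlier results of these data known. Longer forms of the Hnf1 site, a longer window and the TATA box were also searched and are not reported. Named were carriers called for lactation with or without the replicate block, 26 textbook carriers (23 had a row), and the largest control differences. Others are named as illustrations and were chosen after their values were seen.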

Additional observations from a re-analysis of the deposited data

Results flagged for a closer look

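The effect of lactation was called as different among the 4 tissues, by limma's F test, for Slc7a15 (adjusted p = 0.000173), Slc38a5 (0.000941), Slc1a2 (0.0214), Slc6a20a (0.0304) and Slc7a11 (0.0384), against 2.05% of all clusters. The call was lost in 8 of 15 alternatives for Slc1a2, in 9 of 15 for Slc6a20a and in 12 of 14 for Slc7a11. Slc38a5 and Slc7a11 are dim rows.

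In 14 of 240 groups of 4 pools (the 30 carriers named by the rule, with 8 groups each), 1 pool lay far from the other 3 by Dixon's test, and chance flags about 1 in 20 groups. In control liver these were Slc1a1 pool 3 at 3.802, Slc3a2 pool 2 at 9.976, Slc43a1 pool 1 at 9.451 and Slc7a9 pool 1 at 3.344, all below the rest. In lactating liver they were Slc1a1 pool 3 at 5.0 and Slc43a1 pool 4 at 9.447, both above the rest. In control duodenum Slc1a5 pool 4 at 5.64 and Slc38a2 pool 2 at 8.634 were low, and in lactating duodenum Slc38a1 pool 4 at 9.249 was high. In control jejunum Slc1a5 pool 2 at 6.449 was high and Slc3a1 pool 3 at 11.795 low, and in lactating jejunum Slc7a8 pool 4 at 11.934 was high. In control ileum Slc7a15 pool 2 at 9.176 was high, and in lactating ileum Slc6a20a pool 2 at 9.184 was low.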

How the results depend on the processing

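Direction was compared for the 13 pairs of carrier and tissue called with the replicate block, which include those called without it. None reversed in an alternative that was run. For other results only calls and adjusted p were compared. Slc1a2 in liver and Slc6a20a in duodenum and jejunum kept their calls in all 16 alternatives, and the control counts between tissues, for liver against intestine and for ileum against duodenum stayed within 1.5 times. No alternative was run for the control counts of the jejunum or for the splits by direction. With the replicate block the counts of called carriers were 7 in liver and 12 for the mean of the tissues, and no other count for which it was run moved by over 1.5 times. Fitting each tissue on its own gave 1 in liver, 1 in duodenum, 1 in jejunum and 0 in ileum, and kept Slc1a2 and Slc6a20a. Keeping clusters with a group mean of 6 or more gave 1 in duodenum, since Slc38a5 is not kept, and 1 for the mean of the tissues. For the mean of the tissues the count was 7 with no pool as a block, 5 with array weights and 1 with the study's mixed model, and the interaction count with that model was 3. With no pool as a block the liver effect exceeded the intestinal effect for 2 carriers. Without the pools numbered 4 the counts were 0 in ileum, 2 for the interaction and 0 for the liver against the intestinal effect.

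Leaving out 1 pool gave 1 to 4 in liver (1 without control pool 2 or 4 or lactating pool 3), 0 to 1 in ileum (0 without lactating pool 2 or 3), 1 to 5 for the mean of the tissues (1 without control pool 2 or 4 or lactating pool 3, and 5 without lactating pool 4), 2 to 4 for the interaction (2 without control pool 4 or lactating pool 3 or 4, and 3 without control pool 1, 2 or 3) and 1 to 5 for the liver against the intestinal effect (2 without control pool 3, and 1 without control pool 4 or lactating pool 3 or 4). Fewer samples or clusters enter most of these fits, and otherwise the cause was not tested. The alternative with another row of the gene gave no value for a called carrier, since Slc7a12 alone has a second row and was not called. Signal over background limits the values of 27 of the 58 carriers, whose rows are dim.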
